A study of Mus musculus with 8 samples.

Results

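The genes described here were 10 textbook response genes of fibroblast growth factor (FGF) and ERK signaling in the mouse: the ETS transcription factors Etv1, Etv4 and Etv5, the ERK phosphatases Dusp4 and Dusp6, the Sprouty inhibitors Spry1, Spry2 and Spry4, and the Sprouty-related inhibitors Spred1 and Spred2. They were listed by name, by a rule that used no value in the files, although earlier results of these data were known. The locus of each gene was its RefSeq gene body in GRCm38 plus 50 kb on each side, and every called peak that shared at least 1 bp with a locus was taken. This gave 116 of the 99921 chromosomal peaks called in the lens epithelium of embryos (E14.5), 142 of 123686 in their lens fibers, 59 of 58502 in the epithelium of newborns (P0.5) and 57 of 62922 in newborn fibers. Merged across the 4 lists, they formed 194 of 185271 regions.

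The tissue came from CD1 mice, an outbred stock, whose lenses were separated by microdissection into an epithelial and a fiber fraction at the embryonic and the newborn stage. The assay was ATAC-seq, in which a transposase cuts and tags open chromatin. Each of the 4 groups had 2 libraries, each made from several lenses, and the labels name no transgene, deletion or treatment for any group. By the authors' methods, embryonic libraries took more lenses and fewer cells than newborn ones. The part of this input in the stage differences was not tested. The files used here hold 1 peak list for each group, called on both libraries together, so no value has a replicate error and no difference was tested.

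In the lens, FGF from the ocular media acts on the receptors of epithelial cells at the equator, and the ERK cascade it starts drives their elongation and differentiation into fibers. Active ERK raises transcription of the ETS factors of the Pea3 group, which carry the signal to further genes, and of Dusp, Sprouty and Spred genes, whose products damp the same cascade. Several of these genes are held down by the repressor Capicua (Cic), which binds an 8-base sequence and leaves DNA when ERK is active.

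Every gene had an open region at its start site in all 4 lists, and in most loci the highest placed element away from it lay in an intron or far downstream. The first set of sequences shows those elements that hold a Cic octamer (TGAATGAA, TGAATGGA, TCAATGAA or TCAATGGA, either strand), because octamers turned out to be denser in these loci than in the lens regions at large. Capitals mark matches to the octamer, to the ETS string GGAAGT, to the AP-1 string TGANTCA and to the CArG box, the site of serum response factor. Each run is the 200 bp around a summit, cut at the first transcribed base for promoters, read 5′ to 3′ on the strand of the gene from the RefSeq genome (GRCm38).
Etv1 intron, chr12:38843845-38844044, plus strand: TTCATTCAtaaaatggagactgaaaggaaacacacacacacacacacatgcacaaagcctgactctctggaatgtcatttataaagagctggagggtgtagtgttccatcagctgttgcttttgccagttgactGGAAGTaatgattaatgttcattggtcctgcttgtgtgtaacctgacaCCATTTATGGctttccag
Etv4 intron, chr11:101772542-101772741, minus strand: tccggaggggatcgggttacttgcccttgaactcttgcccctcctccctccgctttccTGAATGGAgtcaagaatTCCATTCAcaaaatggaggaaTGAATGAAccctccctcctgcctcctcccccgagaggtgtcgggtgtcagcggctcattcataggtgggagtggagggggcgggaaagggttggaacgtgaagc
Etv4 promoter, chr11:101785311-101785482, minus strand: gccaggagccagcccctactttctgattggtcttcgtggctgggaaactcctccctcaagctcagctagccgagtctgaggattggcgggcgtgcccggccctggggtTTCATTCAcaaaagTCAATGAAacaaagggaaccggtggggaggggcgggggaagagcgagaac
Etv5 intron, chr16:22428996-22429195, minus strand: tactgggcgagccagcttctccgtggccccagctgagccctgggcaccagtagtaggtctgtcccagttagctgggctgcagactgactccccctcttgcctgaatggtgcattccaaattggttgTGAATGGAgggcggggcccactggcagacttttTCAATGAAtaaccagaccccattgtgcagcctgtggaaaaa
Dusp4 promoter, chr8:34807047-34807246, plus strand: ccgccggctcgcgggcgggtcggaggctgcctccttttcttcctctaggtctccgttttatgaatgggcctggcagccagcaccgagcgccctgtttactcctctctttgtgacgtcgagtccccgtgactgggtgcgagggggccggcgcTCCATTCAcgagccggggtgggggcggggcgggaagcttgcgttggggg
Dusp6 promoter, chr10:99263088-99263230, plus strand: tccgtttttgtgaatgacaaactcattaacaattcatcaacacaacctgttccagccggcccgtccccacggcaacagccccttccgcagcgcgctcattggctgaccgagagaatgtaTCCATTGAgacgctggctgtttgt

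The Etv4 intron held 3 octamers within 200 bp, and the Etv4 promoter and the Etv5 intron held 2 each. The Etv1 intron held 1 octamer, 1 ETS string and 1 CArG box. The second set shows both of the promoters placed highest at E14.5 and, for the Sprouty and Spred genes, an open element far downstream of each of Spry1 and Spred1. Neither promoter window held any of the 4 marked motifs, and each downstream element held 1 ETS string.
Etv5 promoter, chr16:22439595-22439794, minus strand: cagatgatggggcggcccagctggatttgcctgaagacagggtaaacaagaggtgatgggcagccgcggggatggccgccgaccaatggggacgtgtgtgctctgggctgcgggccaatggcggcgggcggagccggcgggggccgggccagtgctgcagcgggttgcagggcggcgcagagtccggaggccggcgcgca
Spry2 promoter, chr14:105897247-105897446, minus strand: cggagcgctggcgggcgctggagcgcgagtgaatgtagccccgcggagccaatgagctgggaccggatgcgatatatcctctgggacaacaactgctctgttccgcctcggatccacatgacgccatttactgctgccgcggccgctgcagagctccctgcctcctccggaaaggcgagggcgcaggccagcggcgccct
Spry1 downstream, chr3:37666915-37667114, plus strand: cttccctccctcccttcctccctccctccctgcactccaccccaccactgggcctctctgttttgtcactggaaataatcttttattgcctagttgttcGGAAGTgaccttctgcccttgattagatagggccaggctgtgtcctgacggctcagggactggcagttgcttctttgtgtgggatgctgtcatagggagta
Spred1 downstream, chr2:117210851-117211050, plus strand: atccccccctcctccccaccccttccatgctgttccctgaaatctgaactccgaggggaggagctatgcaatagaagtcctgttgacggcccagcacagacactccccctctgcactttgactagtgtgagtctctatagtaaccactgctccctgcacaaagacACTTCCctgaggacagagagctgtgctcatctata

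Peak strength was compared through ranks. The deposited lists give the fold enrichment of each peak over background, and this value was ranked within its own list, so that a rank of 1% is the placement of a peak in the top 1% of that list. Smaller percentages are therefore higher placements, and peaks of equal fold enrichment share the best rank. A rank moves with the number of weak peaks in its list. The lists held between 58592 and 123743 peaks, and only 48.9% of the P0.5 fiber peaks had a q value under 0.001, against 80.5% to 87.9% in the other lists. The fold enrichment took only 102 different values in the P0.5 fiber list and 506 in the E14.5 fiber list, so low ranks are coarse. The number of reads behind a peak is not given by the lists, and in pooled tissue fewer cells with an open site and a less open site in every cell cannot be told apart.

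The tissue labels were checked on marker promoters. All 7 fiber marker genes (crystallins, Mip, Lim2 and the beaded filament genes) were placed at least 2 times higher in the E14.5 fiber list than in the epithelium list, with medians of 1.30% and 10.4%. At P0.5 6 of the 7 were, with medians of 3.82% and 19.3%. None of the 4 epithelium markers was placed at least 2 times higher in epithelium at either stage. At E14.5 Foxe3 (4.26% in epithelium against 7.48% in fiber) and Cryab (7.05% against 13.8%) stood higher in epithelium. At the same stage Pax6 (3.73% against 0.479%) and Cdh1 (22.5% against 19.5%) stood higher in fiber. At P0.5 Foxe3 (7.95% against 9.32%), Cryab (10.4% against 18.2%) and Cdh1 (39.5% against 48.9%) stood higher in epithelium. Pax6 was then nearly level (6.64% against 6.31%). Of 13 marker promoters of endothelium, immune, pigment, retinal and mesenchymal cells, 9, 10, 7 and 5 had a peak in the lists of E14.5 epithelium, E14.5 fiber, P0.5 epithelium and P0.5 fiber. Ptprc and Aif1 (immune) and Tyr (pigment cells) had no promoter peak in any list. The pigment cell gene Pmel had one in every list, at 4.95% and 7.21% in the epithelium and fiber lists of E14.5 and at 15.1% and 34.7% in those of P0.5, and the immune gene Cd68 had one at E14.5 only, at 77.7% and 42.8%. The part of such cells in the results was not tested.

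All 10 genes had a promoter peak, within 2 kb of a start site, in every list. Among 21000 protein-coding genes the share was 70.3% and 71.2% in the epithelium and fiber lists of E14.5 and 67.0% and 64.6% in those of P0.5. The median placement of the 10 promoters was 5.53%, 3.24%, 9.77% and 6.98% in these lists in turn, against 7.68%, 6.10%, 12.8% and 10.3% over all genes with a promoter peak. Their peaks were wide: the medians were 2410, 2955, 1310 and 912 bp, against 981, 1249, 704 and 561 bp over all genes.

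**Figure D1:**
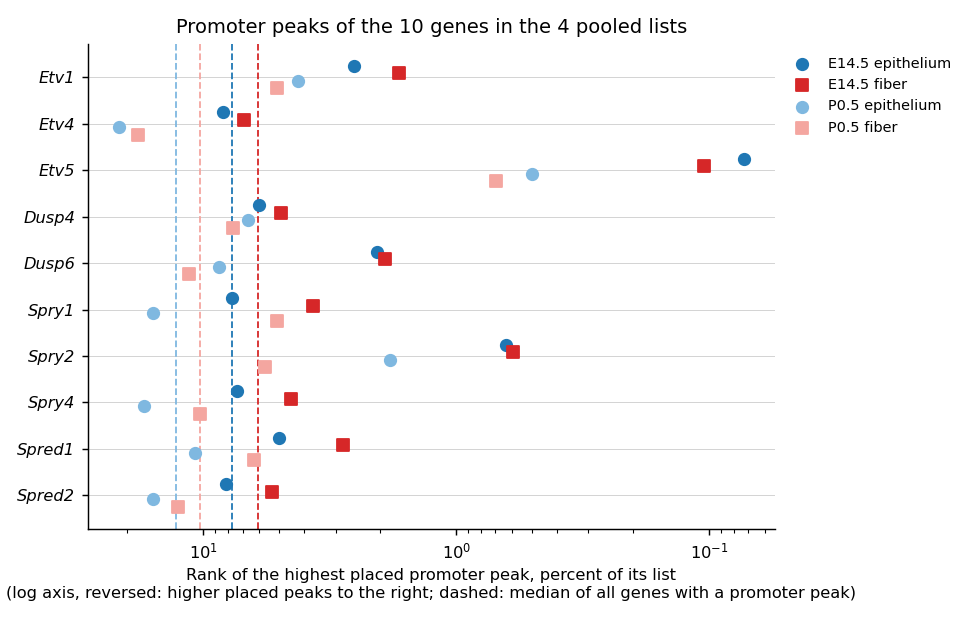
Placement of the highest promoter peak of each gene in each pooled list, as percent of that list on a reversed log axis, with dashed lines at the medians of all genes with a promoter peak. Etv5 stands to the right of the other genes in every list and Spry2 is next to it in each list but P0.5 fiber, and with these whole lists each gene stands further right at E14.5 than at P0.5 in the same tissue.

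Etv5, an ETS factor that ERK signaling induces, had the highest placed promoter of the group in every list. Its peak ranked 73rd in E14.5 epithelium, 130th in E14.5 fiber, 293rd in newborn epithelium and 439th in newborn fiber, or 0.073%, 0.105%, 0.5% and 0.697% of the lists. The fold enrichments were 126, 131, 44.6 and 20.4, and the peak of every list had its summit at -178 to -125 bp from a start site. Among the promoters of all genes it stood at 0.488%, 0.890%, 2.08% and 3.15%. With the whole lists Etv5 was the one gene of the 10 whose promoter was placed higher in epithelium than in fiber at E14.5. With equal numbers of peaks in each list Etv4, Dusp4, Dusp6 and Spry2 were too, by small margins (percent in epithelium over percent in fiber between 0.863 and 0.991, against 0.562 for Etv5). With q under 0.001 Dusp6 (2.33% in epithelium, 2.37% in fiber) and Spry2 (0.721% and 0.737%) were too.

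Etv1, a second factor of the Pea3 group, had its promoter peak at 2.53% of the E14.5 epithelium list, 1.68% of E14.5 fiber, 4.22% of P0.5 epithelium and 5.11% of P0.5 fiber. The summits lay at -1355 to -1311 bp from the first of its 2 annotated start sites. Etv4, the third Pea3 factor, was placed lower, at 8.38%, 6.93%, 21.5% and 18.2%, and in every list it was the lowest of the 10 genes. The order was Etv5, Etv1, Etv4 in all 4 lists. With promoters limited to 1 kb the Etv1 peak in P0.5 fiber stood at 48.9%, below Etv4 at 18.2%, so that Etv1 was then the lowest of the 10 genes in that list.

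The phosphatase Dusp6, which removes phosphate from ERK in the cytoplasm, had its promoter peak at 2.05% and 1.91% of the E14.5 epithelium and fiber lists, and at 8.70% and 11.4% of the P0.5 lists. Dusp4, its nuclear counterpart, stood at 6.04%, 4.93%, 6.64% and 7.65%. At E14.5 Dusp6 was thus placed above Dusp4 in both tissues, and at P0.5 below it in both.

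Spry2, which blocks receptor signaling upstream of RAS, had the second highest placed promoter at E14.5, at 0.634% in epithelium and 0.594% in fiber. It stood at 1.82% in P0.5 epithelium and at 5.69% in P0.5 fiber. Spry1, which acts at the same step, stood at 7.68% and 15.8% in the E14.5 and P0.5 epithelium lists and at 3.67% and 5.11% in the fiber lists. Spry4 stood at 7.35% and 17.2% in epithelium and at 4.50% and 10.3% in fiber. Spry1 was thus placed higher in fiber at both stages, and so was Spry4, except that at P0.5 its direction turned with peaks of q under 0.001 (19.8% in epithelium, 21.1% in fiber). Spry2 was nearly level between tissues at E14.5 and higher in epithelium at P0.5.

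The Spred proteins bind RAF and RAS regulators and lower ERK activation. The Spred1 promoter stood at 5.01% and 10.8% in the E14.5 and P0.5 epithelium lists and at 2.81% and 6.31% in the fiber lists. The Spred2 promoter stood at 8.15% and 15.8% in epithelium and at 5.34% and 12.6% in fiber. Both were placed somewhat higher in fiber at each stage, by 1.25 to 1.78 times, but the direction at P0.5 turned with peaks of q under 0.001, where Spred1 stood at 12.5% in epithelium and 12.9% in fiber and Spred2 at 18.2% and 25.8%.

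For the 4 pairs of lists, a promoter was counted as placed higher where its percentage in the other list was at least 2 times larger. At E14.5, Spry1 alone was placed higher in fiber, by 2.09 times, where 13.2% of all promoters were, and none of the 10 was placed higher in epithelium, where 3.60% were. Spry1 fell to 1.69 times when each list was limited to its 58592 strongest peaks, and none of the 10 was then counted (5.63% of all promoters). None was counted with q under 0.001 either (9.32% of all promoters). At P0.5, Spry1 was placed higher in fiber, by 3.09 times (22.1% of all promoters), and Spry2 in epithelium (18.2% of all promoters), with 1.82% against 5.69%. With q under 0.001 the P0.5 counts changed: Spry1 was no longer placed 2 times higher in fiber (18.2% in epithelium, 10.5% in fiber), where 6.42% of all promoters were, and 5 promoters (Etv1, Etv5, Dusp4, Dusp6 and Spry2) were placed higher in epithelium, where 37.2% of all promoters were.

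Between stages the direction was one-sided with the whole lists. In epithelium 7 of the 10 promoters (Etv4, Etv5, Dusp6, Spry1, Spry2, Spry4 and Spred1) were placed at least 2 times higher at E14.5, where 37.4% of all promoters were, and none at P0.5, where 3.23% were. In fibers 8 (Etv1, Etv4, Etv5, Dusp6, Spry2, Spry4, Spred1 and Spred2) were placed higher at E14.5, where 47.2% of all promoters were, and none at P0.5, where 3.37% were. With q under 0.001 the counts at E14.5 were 7 in epithelium, where 38.6% of all promoters were, and 10 in fibers, where 74.0% were. They were smaller with lists of equal length. With the 58592 strongest peaks of each list, 2 promoters were placed higher at E14.5 in epithelium (Etv5 and Dusp6, with 11.6% of all promoters) and 3 in fibers (Etv5, Dusp6 and Spry2, with 15.8%). In that setting some directions turned: P0.5 was placed higher than E14.5 at Dusp4, by 1.55 times in epithelium and 1.26 times in fiber, at Spry1 by 1.41 times in fiber, and at Etv1 by 1.02 times in epithelium.

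The loci held many regions besides those at the start sites. The 194 regions comprised 15 at promoters of the 10 genes, 2 at promoters of neighbouring genes, 76 in gene bodies, 36 upstream and 65 downstream. Their summits lay in an exon in 12 cases, in an intron in 67 and outside the gene in 115. The loci held a median of 8.77, 10.1, 4.33 and 4.99 peaks per 100 kb in the lists of E14.5 epithelium, E14.5 fiber, P0.5 epithelium and P0.5 fiber, against 5.64, 7.09, 3.57 and 3.55 over the loci of all protein-coding genes, peaks at start sites included. Spred2 had the most regions, 43, in the longest locus, and Spry4 the fewest, 10. Loci in dense gene neighbourhoods include promoters of other genes, and the Etv4 locus reached that of the RNA helicase gene Dhx8.

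**Figure D2:**
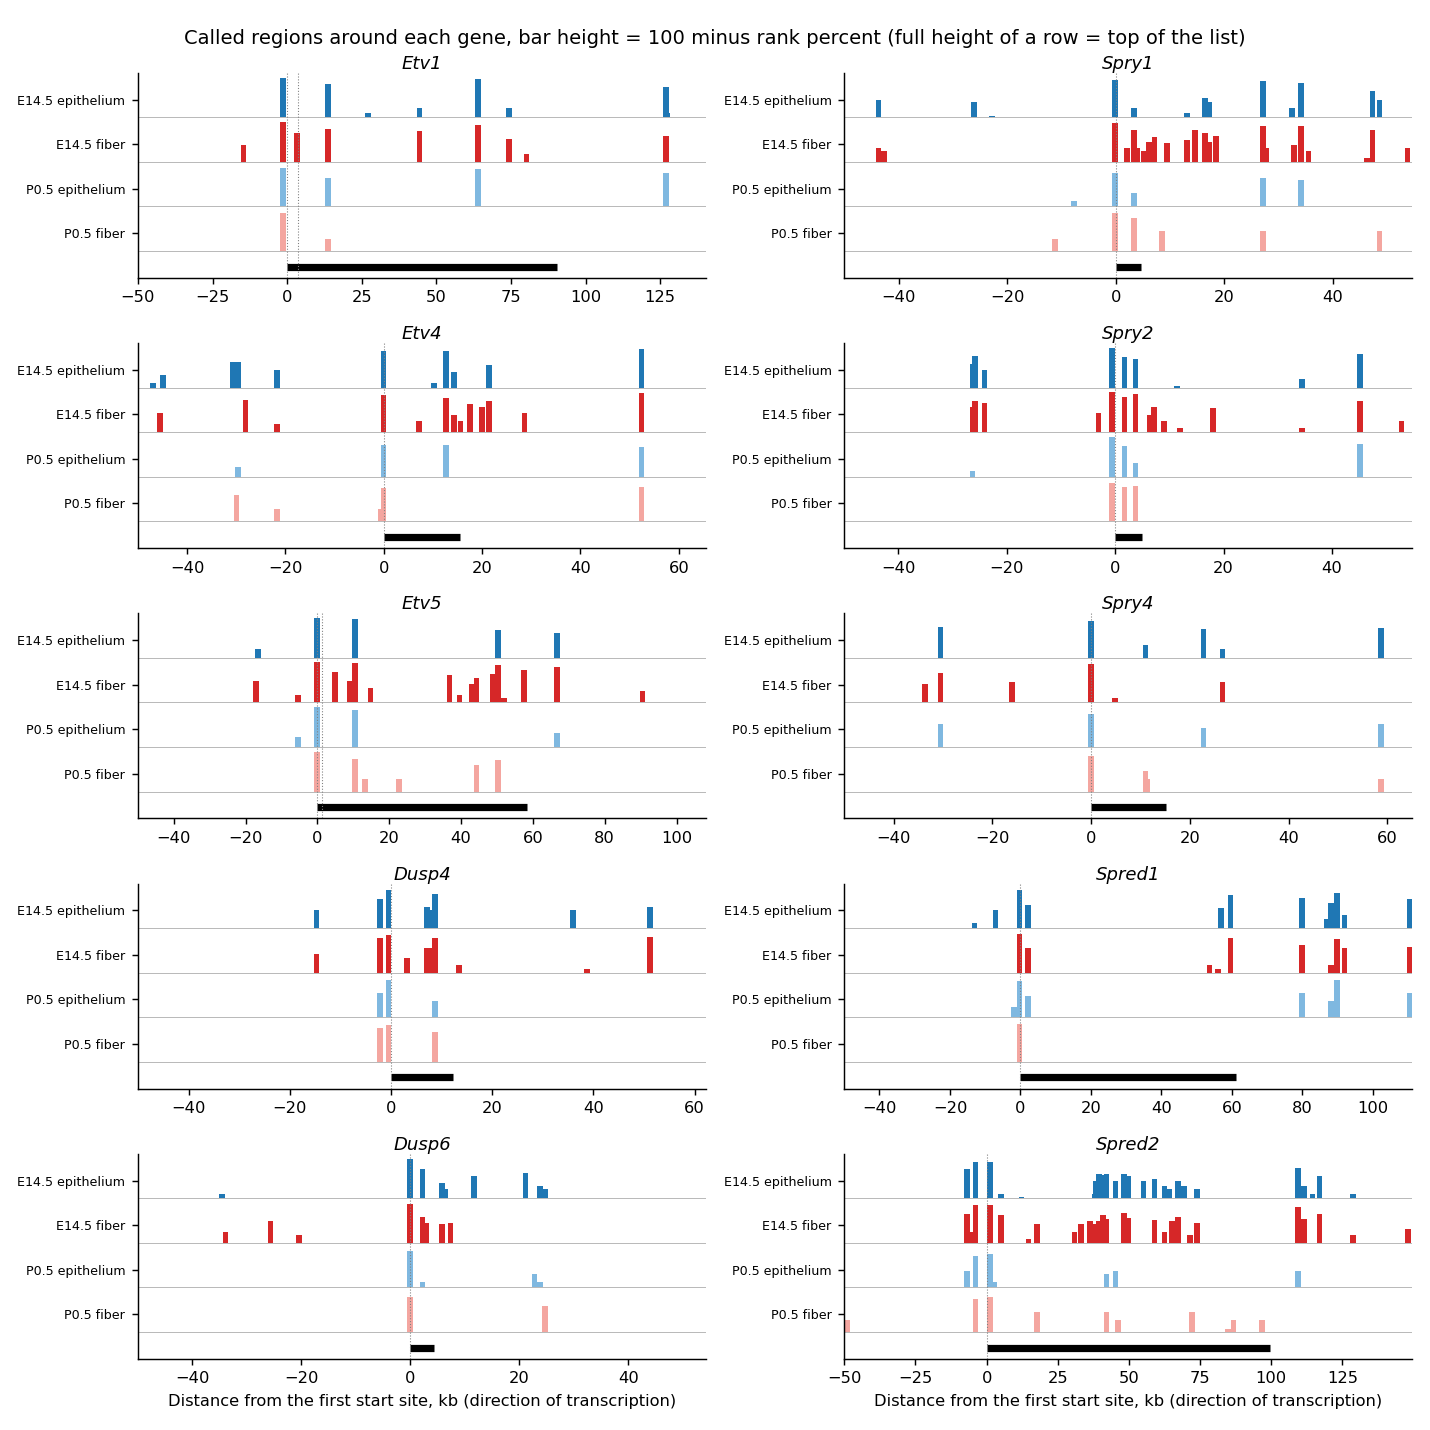
Called regions by distance from the first start site of each gene, in 1 row for each pooled list, with bar height as 100 minus the rank percentage of the region and the gene body as a black line. The start site carries a tall bar in every row, and Etv5 and Spry1 carry many further bars in the E14.5 fiber row.

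Distances below are to the nearest annotated start site. In Etv5 the highest placed element beyond the promoter lay in an intron 9.27 kb inside the gene (chr16:22428585-22429623). At E14.5 it stood at 4.32% in epithelium and 2.26% in fiber, at P0.5 at 8.34% and 18.2%, and its summit is the printed run with 2 octamers. A further intronic element 49.1 kb inside the gene was placed at 7.16% in E14.5 fiber, 21.4% in P0.5 fiber and 30.5% in E14.5 epithelium, and had no peak in P0.5 epithelium. A weaker one at 43.1 kb (chr16:22395154-22395422) was called in both fiber lists, at 40.2% and 34.7%, and in no epithelium list. The Etv5 locus held 21 peaks in E14.5 fiber against 5 in E14.5 epithelium.

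The Etv1 intronic element 60.2 kb inside the gene (chr12:38843550-38844330) was placed lower in fiber. It stood at 3.44% in E14.5 epithelium, 8.27% in E14.5 fiber and 5.61% in P0.5 epithelium, and had no peak in P0.5 fiber. In that list the one Etv1 region outside the promoter, in an intron at 10.1 kb, stood at 69.2%, against 16.8%, 17.1% and 27.9% in the others. The Etv4 intronic element 12.7 kb inside the gene (chr11:101771910-101772859), which holds the 3 octamers, was also placed highest in E14.5 epithelium, with 9.44%, followed by 14.6% in E14.5 fiber and 20.5% in P0.5 epithelium, and had no peak in P0.5 fiber. An Etv4 region at -29.7 kb was called in both epithelium lists, at 35.9% and 75.7%, and in no fiber list. The Dhx8 promoter in the Etv4 locus was placed higher than any Etv4 element in both E14.5 lists and in P0.5 fiber, at 3.69% and 2.28% in the epithelium and fiber lists of E14.5 and at 26.3% and 14.0% in those of P0.5.

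Dusp4 had a pair of elements that were called in all 4 lists. The one at -2.21 kb from the start site stood at 27.7% and 39.5% in epithelium and at 12.3% and 15.7% in fiber, E14.5 first. The intronic one 8.76 kb inside the gene stood at 14.49% and 58.5% in epithelium and at 12.3% and 26.4% in fiber. The best placed Dusp6 region outside the promoter, in an intron 2.21 kb inside the gene, stood at 27.7% in E14.5 epithelium, 36.0% in E14.5 fiber and 86.7% in P0.5 epithelium. The highest placed Dusp4 element in E14.5 fiber lay 51.2 kb downstream, at 10.8%, against 46.8% in E14.5 epithelium and no peak at P0.5. Downstream of Dusp6, a region at 22.8 kb was called in P0.5 epithelium alone, at 66.3%, and one at 23.8 kb in both epithelium lists alone, at 68.5% and 86.7%. Another at 24.7 kb stood at 34.7% in P0.5 fiber and 77.7% in E14.5 epithelium and was not called in the other lists.

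The exons of Spry1 and Spry2 carried regions that were placed at least 2 times higher in fiber at both stages. So were the Dusp4 region at -2.21 kb and the Spry1 promoter. The Spry2 region 3.77 kb inside the gene (chr14:105892744-105894136) stood at 27.7% and 66.3% in the E14.5 and P0.5 epithelium lists and at 5.84% and 11.4% in the fiber lists. The Spry1 region 3.38 kb inside the gene (chr3:37642461-37643647) stood at 77.7% and 66.3% in epithelium and at 19.5% and 18.2% in fiber. The exon regions were picked from a set that matched the background: of the loci's regions called in both E14.5 lists, 10 of 72 (13.9%) were placed at least 2 times higher in fiber, against 12.9% of all such regions, and of those called in both P0.5 lists 5 of 22 (22.7%), against 22.9%.

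Elements of the Sprouty and Spred loci beyond the genes themselves differed in their order of lists. The Spry1 element 27.1 kb downstream of the start site (chr3:37666660-37667253) stood at 8.62%, 10.5%, 29.6% and 48.9% in E14.5 epithelium, E14.5 fiber, P0.5 epithelium and P0.5 fiber. The Spry1 element at 34.1 kb was placed higher in E14.5 fiber (9.23%) than in E14.5 epithelium (14.49%), stood at 33.9% in P0.5 epithelium and was not called in P0.5 fiber. The Spry2 element at 45.2 kb (chr14:105851450-105851816) stood at 16.4%, 22.1% and 19.6% and was not called in P0.5 fiber. The Spred1 element at 89.9 kb (chr2:117210582-117211165) stood at 12.3%, 15.9% and 6.14%, highest in P0.5 epithelium, and was also not called in P0.5 fiber. A Spred1 exon region at 59.6 kb stood at 12.3% in E14.5 fiber and 16.8% in E14.5 epithelium and was not called at P0.5. In P0.5 fiber the Spred1 locus held 2 peaks, against 12, 10 and 7 in the other lists.

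Spred2 carried an element at -3.92 kb from its start site (chr11:19919541-19920706) that followed its promoter closely, at 8.51%, 5.92%, 20.5% and 18.2%. Its element 109 kb downstream was placed higher in E14.5 fiber (10.8%) than in E14.5 epithelium (24.3%), stood at 58.5% in P0.5 epithelium and was not called in P0.5 fiber. Intronic Spred2 regions were called in both fiber lists alone at 17.6 kb, at 53.3% and 48.9%, and in both epithelium lists alone at 45.3 kb, at 55.5% and 58.5%.

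The Spry4 locus had no strong element outside its promoter: the best placed one, at -30.5 kb, stood at 22.5% in E14.5 epithelium, 27.2% in E14.5 fiber and 42.9% in P0.5 epithelium. A Spry4 region 22.8 kb downstream was called in both epithelium lists, at 27.7% and 52.3%, and in no fiber list. A region 58.8 kb downstream stood at 25.3%, 42.9% and 69.2% in the lists of E14.5 epithelium, P0.5 epithelium and P0.5 fiber and was not called in E14.5 fiber. An exon region at 11 kb was called in P0.5 fiber, at 48.9%, and in E14.5 epithelium, at 68.5%.

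**Figure D3:**
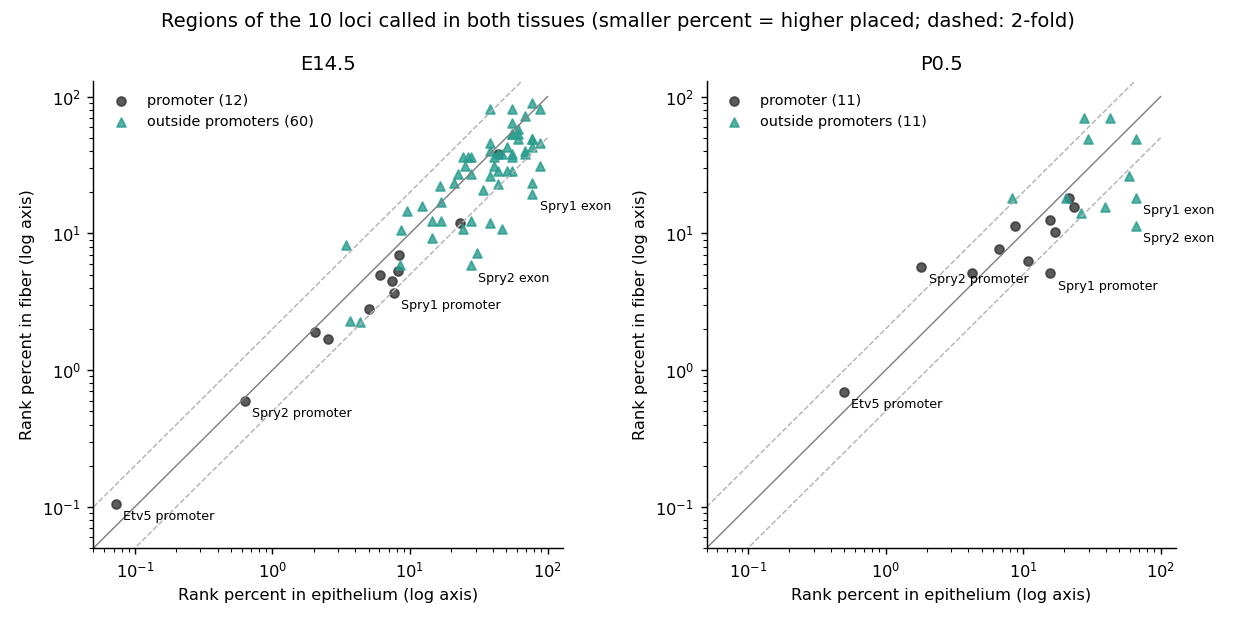
Rank percentage in fiber against epithelium (log axes, smaller is higher placed) for regions of the 10 loci called in both tissues, at E14.5 (72 regions) and at P0.5 (22 regions), with the dashed lines at a 2-fold difference. The exon regions of Spry1 and Spry2 lie below the lower dashed line at both stages, as do the Spry1 promoter and a Dusp4 region. The Spry2 promoter lies above the upper one at P0.5.

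Most regions of the loci were called in few lists. Of the 194 regions, 111 were called in 1 list, 43 in 2, 19 in 3 and 21 in all 4, or 57.2%, 22.2%, 9.79% and 10.8%, against 59.5%, 18.4%, 11.3% and 10.9% of all regions. E14.5 fiber alone had 66 of them (34%, Wilson 95% interval 27.7 to 40.9%, against 29.3% of all regions), and both E14.5 lists but no P0.5 list had 33 (17.0%, 12.4 to 22.9%, against 11.4%). P0.5 fiber alone had 13 (6.70%, 3.96 to 11.1%, against 12.6%). No region was called in both P0.5 lists and neither E14.5 list, where 0 of 194 allows a share of up to 1.55% and the share of all regions was 0.348%. Of the 19 regions called in 3 lists, 16 were absent from P0.5 fiber, a pattern of 8.25% of the regions of the loci and 8.42% of all regions. These intervals cover counting error only and treat regions as independent.

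**Figure D4:**
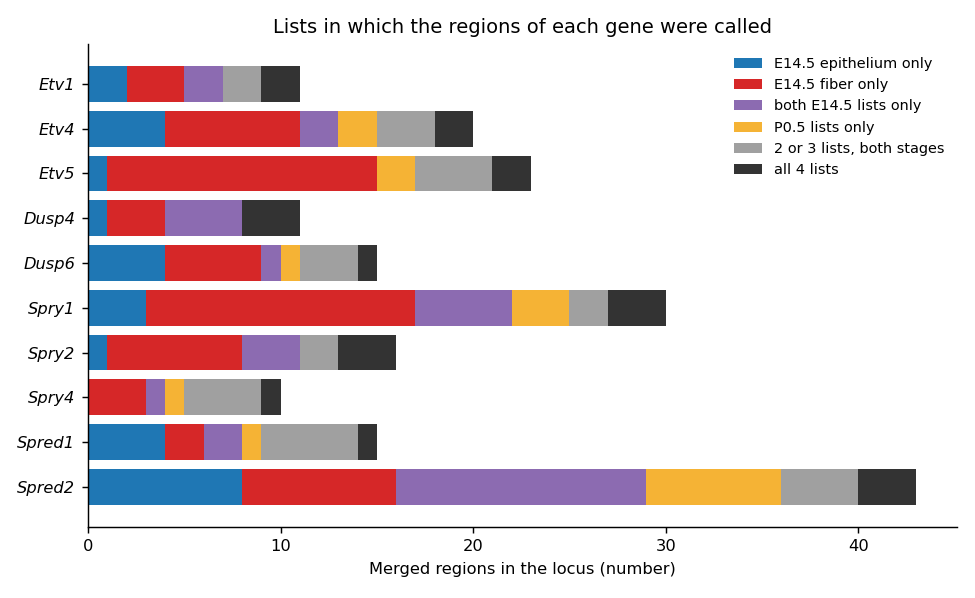
Number of merged regions of each locus by the lists in which they were called. E14.5 fiber alone makes up 14 of 23 regions at Etv5 and 14 of 30 at Spry1, and Spred2 has 13 regions called in both E14.5 lists only.

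At E14.5, 69 of the 177 regions called in either tissue were called in fiber and not in epithelium (39.0%, 32.1 to 46.3%), near the 40.1% of all regions, and 36 in epithelium and not in fiber (20.3%, 15.1 to 26.9%), near the 19.7% of all regions. By locus, the regions called in fiber and not in epithelium were 16 of 21 at Etv5 (76.2%) and 14 of 27 at Spry1 (51.9%), but 9 of 36 at Spred2 (25.0%), which had as many in epithelium and not in fiber, and 2 of 14 at Spred1 (14.3%). With equal numbers of peaks in each list the shares of the loci at E14.5 became 29.2% for fiber, against 24.8% of all regions, and 13.5% for epithelium, against 20.6%, so that both differences from all regions changed sign. At P0.5, 20 of 67 were called in fiber and not in epithelium (29.9%, 20.2 to 41.7%, against 39.7% of all regions), and 25 in epithelium and not in fiber (37.3%, 26.7 to 49.3%, against 35.2%). Of the 20, 4 had a peak with q under 0.001 (5.97% of the 67, against 11.4% of all regions). With the whole lists the 4 intervals of the tissue counts thus held the share of all regions.

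The same counts were made between stages. In epithelium 66 of 113 regions were called at E14.5 and not at P0.5 (58.4%, 49.2 to 67.1%, against 49.7% of all regions), and 5 at P0.5 and not at E14.5 (4.42%, 1.90 to 9.94%, against 11.2%). In fibers 116 of 158 were called at E14.5 and not at P0.5 (73.4%, 66.0 to 79.7%, against 62.6%), and 17 at P0.5 and not at E14.5 (10.8%, 6.83 to 16.6%, against 17.6%). Only 2 of these 17 had a peak with q under 0.001 (1.27% of the 158, against 4.36% of all regions), and 3 of the 5 in epithelium (2.65% of the 113, against 6.95%). The first of these 4 intervals held the share of all regions and the other 3 did not. The intervals treat regions as independent, although Spred2 alone held 21 of the 66 and 23 of the 116, so they test no difference. With equal numbers of peaks in each list the shares in fibers became 56.2% and 19.8%, against 40.5% and 33.0% of all regions, and those in epithelium 32.9% and 10%, against 27.0% and 22.4%.

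Motif letters were then counted in the 194 regions and in all 185271. In the 200 bp around the summit, 29 regions held the ETS string GGAAGT (14.9%, Wilson 95% interval 10.6 to 20.6%, against 12.5% of all regions), 16 the AP-1 string TGANTCA (8.25%, 5.14 to 13.0%, against 6.58%) and 3 a CArG box (1.55%, 0.527 to 4.45%, against 0.627%). The Tead string GGAATG was in 26 (13.4%, 9.31 to 18.9%, against 13.7%) and the Maf string TGCTGA in 54 (27.8%, 22.0 to 34.5%, against 23.1%). A Sox string (ACAATG or ACAAAG) was in 62 (32.0%, 25.8 to 38.8%, against 24.8%). Both strands were searched, and none of the strings contains another.

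Cic octamers were in 10 regions by the 200 bp windows (5.15%, 2.82 to 9.23%, against 2.87%) and in 26 whole regions (13.4%, 9.31 to 18.9%, against 5.23%). At least 2 octamers were in 10 whole regions (5.15%), against 0.438% of all regions, a count made after the printed sequences had been seen. In whole regions the ETS string was in 28.9% (22.9 to 35.6%, against 20.9%), the Maf string in 40.7% (34.1 to 47.8%, against 32.5%) and a Sox string in 43.3% (36.5 to 50.3%, against 35.4%), so that these shares too lay above those of all regions. The loci's regions were wider, with a median of 269.5 bp against 241 bp, and the part of width and of the mix of promoters and other regions in these shares was not tested. Octamers per 100 kb of region numbered 48.2 in the loci and 14.2 in all regions.

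The octamers gathered at promoters and at the intronic elements of the ETS factors. The promoter regions of all 10 genes held at least 1, against 15.5% of the 15643 genes with a promoter region, and these regions were wider in the 10 genes, with a median sum of 3213 bp against 1511 bp. Within a fixed 2 kb on each side of the start site, 10 of 10 genes held an octamer and 8 held at least 2, against 50% and 18.1% of all 21000 genes. The promoter regions of Etv4 and Dusp6 held 5 each, Spred1 held 4, Etv5 held 3, and Etv1, Dusp4 and Spred2 held 2. Spry1, Spry2 and Spry4 held 1 each. A match shows only that these letters are present, and binding was not measured.

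**Figure D5:**
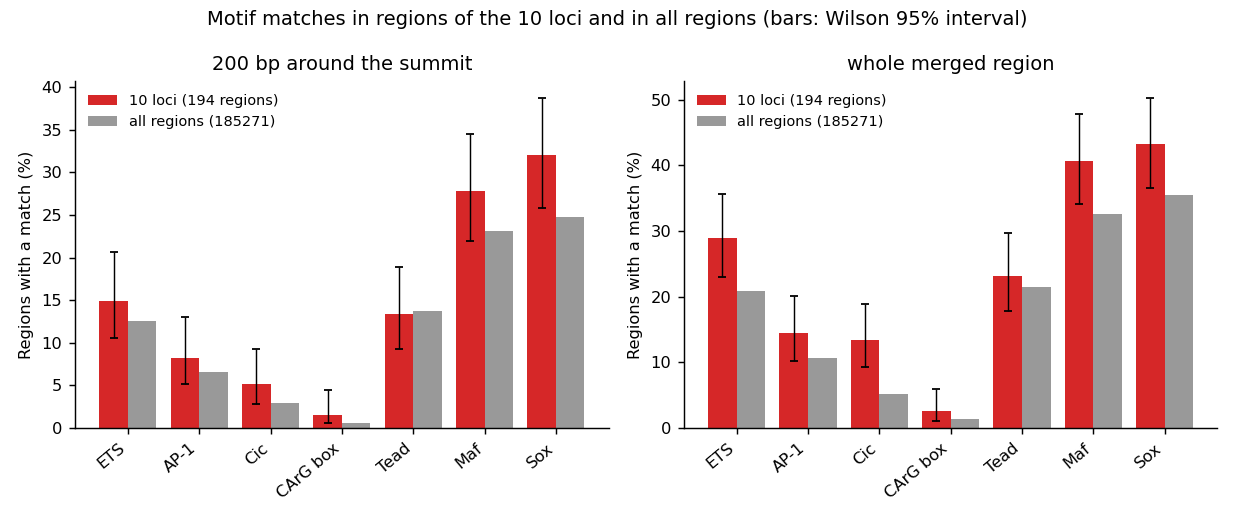
Share of regions that hold each motif, in the 10 loci and in all regions, with Wilson 95% intervals for the loci, counted in the 200 bp around the summit and in the whole region. In the whole regions the shares of all regions lie below the intervals of the loci for ETS, Cic, Maf and Sox. In the 200 bp windows this is so for Sox alone.

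The other genes of the pathway also had promoter peaks in nearly all cases. Of 63 listed ligands, receptors, adaptors, kinases, nuclear targets and feedback inhibitors, 62 matched a RefSeq gene, and their promoters carried a peak in 61 and 60 cases in the epithelium and fiber lists of E14.5 and in 60 and 57 in those of P0.5. Their median placements were 6.52%, 4.81%, 11.5% and 8.49%, between those of the 10 genes and of all genes in each list. At E14.5, 14 of 61 were placed at least 2 times higher in fiber (against 13.2% of all promoters) and 2 in epithelium (3.60%), and at P0.5 15 of 61 in fiber (22.1%) and 13 in epithelium (18.2%). Between stages, 27 of 61 were placed higher at E14.5 in epithelium (37.4%) and 2 at P0.5 (3.23%), and in fibers 27 of 60 (47.2%) and 0 (3.37%).

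By role, the receptors and co-receptors had medians of 9.01% and 4.32% in E14.5 epithelium and fiber, and the RAS, RAF, MEK and ERK genes 3.0% and 2.03%. The FGF ligands were placed lowest, at 22.5% and 21.1%. With the whole lists, the widest difference between tissues at E14.5 was at Fgfrl1, a receptor without a kinase domain, with 0.703% in fiber and 2.76% in epithelium. In the other direction it was Fgf7, a ligand, with 32.1% in epithelium and no promoter peak in fiber, which was set to 100%. At P0.5 it was Map2k1, the gene of the ERK kinase MEK1, with 0.498% in fiber and 6.14% in epithelium, and Ets1, an ETS factor, with 0.195% in epithelium and 4.64% in fiber. Ets1 also led the promoters placed higher at P0.5 than at E14.5 in epithelium, where it stood at 2.53% at E14.5. The widest differences in favour of E14.5 were at Grb2, the adaptor that links receptors to RAS activation, with 2.38% and 18.8% in epithelium, and at Nras, with 6.87% in E14.5 fiber and no promoter peak in P0.5 fiber. With equal numbers of peaks Grb2 stood at 4.07% and 18.8%, Ets1 at 4.31% at E14.5 and 0.195% at P0.5 in epithelium, and Nras again had no promoter peak in P0.5 fiber. Fgf7 then stood at 54.8% in E14.5 epithelium, again with no fiber peak, and was no longer placed at least 2 times higher.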

How the data were processed

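The 8 libraries were prepared by ATAC-seq from microdissected lens epithelium and fibers of CD1 mice, 2 for each of the 4 groups. According to the submitters' processing notes, the authors used Trim Galore 0.4.1, Bowtie2 2.3.3.1, SAMtools 1.2, Picard 2.1.1 and MACS2 2.1 on mm10, and they called peaks at a q value under 0.05. The deposited files used here are 1 MACS2 narrowPeak list for each group, called on both libraries together, and values for single libraries were not analysed here. The fold enrichment in these lists is a ratio of the authors' pileup to background, and the deposited p-value and q-value are on the −log10 scale. The authors' peak score column and, beyond the summit position, the offset column in the deposited files were not used. No column was left without a group (0 columns).

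Peaks on the 21 chromosomes were used, with no further blacklist filter, and none reached beyond a chromosome end of GRCm38. Fold enrichment was ranked within each whole list, with ties at the best rank. Within a list it was a one-to-one function of the p-value. Start sites came from curated RefSeq transcripts (NM and NR), and promoters were peaks within 2 kb of one. Regions were merged with bedtools 2.31.1 at 10 bp. A promoter absent from a list was set to 100%. Motifs were searched with Python 3.11.15 and pysam 0.24.0, intervals are Wilson intervals from SciPy 1.17.1 at 95%, and a count of 0 was read with 3 counts as its limit. Ranking, merging and motif search were tested on simulated data.

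The 10 genes, the pathway list, the markers and the motifs were chosen with earlier results of these data known. All 10 genes were named, with each gene's highest placed promoter and other peaks per list and its highest placed region called in both lists of 1 tissue only. Of the pathway list, the gene with the highest ratio in each direction of each pair was named. The exception was P0.5 over E14.5 in fibers, where no gene of the list was placed at least 2 times higher. The alternatives were a q value under 0.001, equal numbers of peaks, windows of 20 kb and 1 kb, summits inside the locus, leaving out promoters of other genes, ranks by p-value, merging at 100 bp and whole regions for motifs.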

Additional observations from a re-analysis of the deposited data

How the results depend on the processing

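No paired analysis was possible because the files used here hold 1 pooled list for each group, and for the same reason no replicate could be left out. All 10 genes kept a promoter peak in all 4 lists under each alternative run. The peak counts of the loci changed by more than 1.5 times with equal numbers of peaks, to 67 and 78 in the epithelium and fiber lists of E14.5, and with q under 0.001 in P0.5 fiber, to 31.

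Promoters placed higher at E14.5 became 2 in epithelium and 3 in fibers with equal numbers. Those placed higher in fiber at E14.5 became 0 with equal numbers and 0 with q under 0.001, and those in fiber at P0.5 became 0 with q under 0.001. Those placed higher in P0.5 epithelium than in fiber became 5 with q under 0.001, and 2 with promoters of 1 kb, where Etv1 joined Spry2 because its P0.5 fiber peak lies beyond 1 kb. Ranking by p value changed nothing, by construction.

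With equal numbers, regions called in 1 list of a pair became 26 (E14.5 fiber, not epithelium), 12 (E14.5 epithelium, not fiber), 23 (E14.5 epithelium, not P0.5) and 54 (E14.5 fiber, not P0.5). With presence at q under 0.001 they became 4 (P0.5 fiber, not epithelium), 3 (P0.5 epithelium, not E14.5) and 2 (P0.5 fiber, not E14.5). Merging at 100 bp moved none by over 1.5 times. Whole regions gave 56 ETS, 28 AP-1, 26 Cic, 5 CArG box and 45 Tead matches, since more bases were searched. Without read counts for each library, a missing peak may be a weak one.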
